A study of Mus musculus with 36 samples.

Results

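The genes nearest to MBD3 binding sites in mouse embryonic stem cells (ESCs) were compared with those in neural progenitors derived from them (NPCs). An ESC site was a peak of the first ESC MBD3 replicate that overlapped a peak of the second by at least 1 bp, which gave 1508 sites from lists of 2344 and 7551 peaks. In NPCs all 2304 peaks of the only MBD3 list were taken. Each site was assigned to the protein-coding gene whose start lay nearest to its midpoint, so that 2651 of 22367 genes were MBD3 target genes in ESCs, in NPCs or in both. Sites in ESCs only were held by 862 genes and sites in NPCs only by 1520. Of the 269 genes with sites in both cell types, 64 held an overlapping pair of sites and 205 held their ESC and NPC sites at different positions.

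By the labels, the MBD3, CHD4 and SIN3A lists came from wild-type cells. The peak names of ESC CHD4 replicate 2 mention another tagged line, so the genotype behind that list, which enters the ESC CHD4 sites below, is uncertain. The ESCs were of the R1 line, grown in serum with LIF and the 2i inhibitors, and the NPCs had been derived from R1 ESCs in vitro and were kept in NPC medium. The ZFP296 list came from ESCs that carried a GFP-tagged ZFP296 construct, in the R1 line by the labels and in the KH2 line by the study's methods. MBD3 was precipitated with the same antibody in all 3 libraries, and the 9 peak lists analysed here belong to a series of 36 samples. ESC MBD3 had 2 replicates and NPC MBD3 had 1 library, so no difference between the cell types could be tested over samples, and cell type and library cannot be told apart. Peak lists give no RNA level, so the cell identities were not checked against expressed markers.

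MBD3 belongs to NuRD, the nucleosome remodeling and deacetylase complex, which joins the ATPase CHD4 to the deacetylases HDAC1 and HDAC2 and is known to restrain and tune transcription at promoters and enhancers. In ESCs the complex is known for permitting exit from self-renewal. A gene can be served by many enhancers, some of them far from its start, so the same gene may be a target in both cell types through different elements.

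Read depth was not known, because the lists carry no read counts, but the peak names of all 3 MBD3 lists mention the same number of normalized reads. The median peak width was 246 bp in ESC replicate 1, 192 bp in replicate 2 and 211 bp in NPCs. The authors' peak caller gave every peak a −log10 value (here the peak value), whose medians were 7.93, 8.28 and 8.62 in the same order. These values rank peaks within a list and were not used to compare levels of binding between cell types.

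Some of the genes with MBD3 at different positions are shown first by sequence, chosen because their ESC and NPC sites held different strings. Shown are 4 of the 5 genes with the highest summed peak values among those whose ESC site held the octamer ATGCAAAT or the SOX string CCATTGT and whose NPC site held the AP-1 string TGACTCA, each on either strand. The octamer is bound by POU factors such as POU5F1, the SOX string by SOX2 and its relatives, and the AP-1 string by FOS and JUN dimers. Coordinates are 1-based on mm9, the strand is plus, and the capitals mark the string that was found.
Fyb ESC site (chr15:6578700-6578799): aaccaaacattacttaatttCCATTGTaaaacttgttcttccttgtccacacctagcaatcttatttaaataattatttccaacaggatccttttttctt
Fyb NPC site (chr15:6515136-6515235): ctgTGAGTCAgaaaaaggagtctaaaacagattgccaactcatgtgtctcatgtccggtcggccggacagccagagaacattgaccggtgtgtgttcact
Sox2 ESC site (chr3:34552948-34553147): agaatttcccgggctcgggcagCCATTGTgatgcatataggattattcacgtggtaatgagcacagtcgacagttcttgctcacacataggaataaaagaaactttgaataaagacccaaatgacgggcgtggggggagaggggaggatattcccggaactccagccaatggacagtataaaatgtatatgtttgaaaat
Sox2 NPC site (chr3:34394691-34394790): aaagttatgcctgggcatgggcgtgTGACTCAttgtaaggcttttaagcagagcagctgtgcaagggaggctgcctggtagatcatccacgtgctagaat
Pax1 ESC site (chr2:147118763-147118862): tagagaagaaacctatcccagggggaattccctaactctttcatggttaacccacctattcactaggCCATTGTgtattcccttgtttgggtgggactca
Pax1 NPC site (chr2:147427522-147427621): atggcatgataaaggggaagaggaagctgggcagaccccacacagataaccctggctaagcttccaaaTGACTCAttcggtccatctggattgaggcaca
Prune2 ESC site (chr19:17212695-17212894): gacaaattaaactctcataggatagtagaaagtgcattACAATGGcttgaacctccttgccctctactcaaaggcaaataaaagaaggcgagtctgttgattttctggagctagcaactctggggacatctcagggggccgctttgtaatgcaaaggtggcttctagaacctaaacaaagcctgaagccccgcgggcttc
Prune2 NPC site (chr19:17215007-17215206): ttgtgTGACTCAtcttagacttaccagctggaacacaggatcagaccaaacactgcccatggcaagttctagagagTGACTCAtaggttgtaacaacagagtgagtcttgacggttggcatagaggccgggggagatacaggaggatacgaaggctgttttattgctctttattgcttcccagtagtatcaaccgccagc

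The distance between such paired elements differed widely. At Prune2 the ESC site and the nearest NPC site lay 2.31 kb apart in introns of the gene, whereas at Sox2 the printed NPC site lay 154 kb upstream of the start and the printed ESC site 4.12 kb downstream of it. Fyb, which encodes a T-cell adaptor protein, held its ESC site in an intron and its NPC site 14.7 kb upstream. The sites of Pax1, a paired-box transcription factor, were intergenic, with the ESC site 68.8 kb upstream and the printed NPC site 240 kb downstream of the start, so that the nearest gene is only a label of position there.

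Most target genes belonged to only 1 of the cell types. ESC sites marked 1131 genes (5.06% of all protein-coding genes) and NPC sites marked 1789 (8%). A site in both cell types was found at 269 genes (1.2%), which were 23.8% of the ESC target genes (95% exact interval 21.3 to 26.4%) and 15.0% of the NPC target genes (13.4 to 16.8%). The ESC only genes made up 3.85% of all genes, the NPC only genes 6.8%, the genes with overlapping sites 0.286% and the genes with sites at different positions 0.917%. In both cell types most targets held a single site, 882 of 1131 genes in ESCs (78.0%) and 1419 of 1789 in NPCs (79.3%), and the most sites at any gene were 7 and 6.

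Of the genes with sites in both cell types, 76.2% (70.7 to 81.2%) held no overlapping pair, but with sites within 10 kb of a start alone 26 genes did and 48 held a pair (35.1% without one). Only 70 pairs of sites overlapped between the cell types, and 1 of these pairs was split between neighbouring genes. Among NPC sites that overlapped no ESC site, 315 of 2234 (14.1%) belonged to a gene with an ESC site elsewhere.

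The replicates of ESC MBD3 gave a scale for these shares, which depended on the direction of the comparison. Of the 1650 genes of replicate 1, 1329 (80.5%) were also marked in replicate 2, whereas 765 of the 1789 NPC genes (42.8%) were marked in replicate 2. Of 835 replicate 1 peaks that overlapped no replicate 2 peak, 492 (58.9%, 55.5 to 62.3%) still had a replicate 2 peak at the same gene, and of 2116 such NPC peaks, 844 did (39.9%, 37.8 to 42.0%). Against replicate 2, the NPC share was lower than the share between replicates by both measures. In the other direction, 1329 of the 4074 genes of replicate 2 (32.6%) were marked in replicate 1. Of its peaks that overlapped no replicate 1 peak, 33.2% had one at the same gene. For NPCs against replicate 1 these shares were 21.0 and 19.2%, a smaller gap. The share between replicates in that direction lay below the 42.8% of NPC genes marked in replicate 2. The share of NPC target genes also marked in ESCs moved with the ESC list, from 15.0% for the 1131 genes of the ESC sites to 21.0% for the 1650 genes of replicate 1 and 42.8% for the 4074 genes of replicate 2. The part of list size in this was not tested.

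The class NPC only therefore holds genes of 2 kinds. At 554 of its 1520 genes (36.4%) a peak of at least 1 ESC MBD3 list was nearest to the same gene without being an ESC site, 107 in replicate 1 and 496 in replicate 2. The other 966 genes (63.6%) had no MBD3 peak in either ESC list. For comparison, 19.6% of all genes were nearest to a peak of either ESC list. At the level of position, 125 of the 1920 sites of NPC only genes (6.51%) overlapped a peak of either ESC list. Of the 205 genes with sites at different positions, 35 (17.1%) had an NPC site on a peak of at least 1 ESC list, and at 170 (82.9%, 77.1 to 87.8%) no NPC site met a peak of either.

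Many pluripotency genes were ESC targets. Of 40 genes of pluripotency and the naive ESC state, 26 (65.0%, against 3.85% of all genes) had MBD3 sites in ESCs only, none in NPCs only and 3 in both at different positions. The share with any NPC site was 7.5%, near the 8% over all genes. The ESC only count was 26 with replicate 1 alone and 32 with replicate 2 alone. With replicate 2 alone 14.8% of all genes were ESC only and 4.58% NPC only, against 5.70 and 6.32% with replicate 1 alone, and the list counts below are to be read against these shares. The gene lists were chosen with earlier results of these data known, and their counts are descriptions without a test. Some genes are in several lists, so the counts are not separate. Of the ESC only pluripotency genes, Nodal and Tdgf1 also count in the TGF-beta list and Etv5 and Fgf4 in the FGF list below.

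Pou5f1, which encodes the POU factor OCT4, held 4 ESC sites from 0.09 to 3.47 kb upstream of its start. Their peak values were 8.03 to 18.3 in replicate 1 and 9.41 to 14.6 in replicate 2, and the gene had no NPC peak. Nanog had 1 ESC site 4.78 kb upstream, with peak values of 8.31 and 7.96 in the replicates. Esrrb, an orphan nuclear receptor of the naive network, had 4 ESC sites between 104 and 143 kb into the gene. Both replicates thus held every one of these sites, as the rule requires, and the NPC list held none.

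The ESC only genes with most sites were Spry2, Cdh1, Etv5 and Sall4 with 5 each. Of the genes with 4 each, Pou5f1, Tbx3 and Esrrb among them, Prdm14 and Tet1 ranked first by their highest peak value. Spry2, an inhibitor of receptor tyrosine kinase signalling, had its sites in 3 groups, at 35.8 and 37.3 kb downstream, at 3.97 and 4.28 kb upstream and at 24.3 kb upstream. Its strongest site had a peak value of 18.9 in replicate 1 and 14.3 in replicate 2. Cdh1, which encodes E-cadherin, held all its sites within its first 15.1 kb, in introns, with replicate 1 values of 4.68 to 11.3. The sites of Etv5, an ETS factor of the FGF response, were also intronic and had replicate 1 values in a narrow range of 7.54 to 8.63. Tet1, a 5-methylcytosine dioxygenase, carried its sites from 0.957 to 6.12 kb downstream of the start, the highest at 19.8 in replicate 1 and 20.4 in replicate 2. The sites of Sall4, a zinc finger factor of ESCs, lay 3.09 to 6.73 kb into the gene and 72.1 and 73.9 kb upstream, and those of Prdm14, a repressor that safeguards the naive state, 23 to 52.6 kb downstream. Clusters near the start and distant sites were thus both found among these genes.

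Sox2, Klf5 and Jarid2 were the pluripotency genes that also had NPC sites, all at other positions. Sox2, a factor of ESCs and of neural progenitors alike, held 5 ESC sites. One lay 4.12 kb downstream, with peak values of 18.1 in replicate 1 and 13.9 in replicate 2. The other 4 lay 95.4 to 111 kb downstream, in the direction of the enhancer cluster known to drive Sox2 in ESCs, with values of 8.76 to 23.1 in replicate 1 and 7.65 to 32.3 in replicate 2. The only NPC site, with a peak value of 10.8, lay 154 kb upstream and held the AP-1 string, which was also found in the farthest ESC site. No NPC peak fell on any of the 5 ESC sites, and no ESC MBD3 peak fell on the NPC site.

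Klf5, a Kruppel-like factor of the naive network, had 4 ESC sites between 41.1 and 56.9 kb downstream and 1 NPC site 326 kb downstream. Of its ESC sites 3 held the octamer. Their peak values ranged from 5.36 to 18 in replicate 1 and from 7.42 to 19.2 in replicate 2, and the NPC site had 12.0. At Jarid2, a subunit of Polycomb repressive complex 2, 7 ESC sites stretched from 170 kb upstream to 122 kb downstream, while NPC sites lay 0.983 and 55.4 kb downstream in introns with peak values of 8.09 and 4.77. The last ESC site of Jarid2 differed between the replicates, with 7.88 in replicate 1 and 45.0 in replicate 2.

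**Figure D1:**
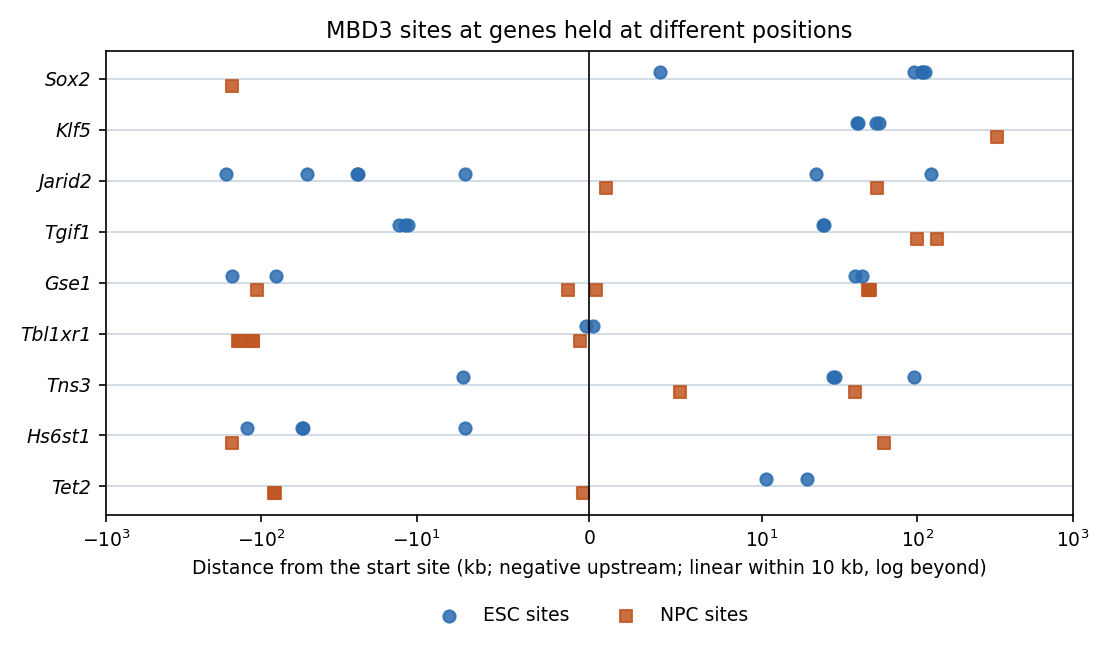
MBD3 sites around the start of 9 genes held at different positions, by distance from the start site (kb, linear within 10 kb and log beyond; blue circles, ESC sites; orange squares, NPC sites). Shown are the 6 genes with most sites in both cell types and Sox2, Klf5 and Tet2; the Sox2 ESC sites lie downstream and its NPC site 154 kb upstream.

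Neural lineage genes had sites in either cell type. Of 47 neural progenitor and glial genes, 8 were NPC only (against 6.8% of all genes), 1 was ESC only, 1 had overlapping sites and 3 had different positions. With replicate 1 alone 8 were NPC only and 5 ESC only. With replicate 2 alone 5 were NPC only (10.6%, against 4.58% of all genes) and 9 ESC only (19.1%, against 14.8%). NPC only members included Sox9, with sites 250 and 321 kb downstream, Cd44, a cell surface hyaluronan receptor with sites 0.063 and 28.3 kb downstream, and the matrix genes Tnc and Bcan. Their peak values were 9.66 and 9.92 for Sox9, 7.02 and 6.21 for Cd44, 12.0 for Tnc and 15.0 for Bcan. An ESC replicate 2 peak was nearest to Sox9 as well, though not to Cd44, Tnc or Bcan. Of the 8 NPC only members, 3 had a peak of at least 1 ESC list.

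The exceptions were Zbtb20, a zinc finger repressor with 2 ESC sites 93.7 and 94.3 kb upstream, and Hes1, an effector of Notch signalling. Hes1 held an ESC and an NPC site that overlapped 5.38 and 5.55 kb downstream of its start, with peak values of 6.06 in replicate 1, 11.9 in replicate 2 and 6.05 in NPCs. A second NPC site with the AP-1 string lay 34.7 kb upstream. Nfib and Msi2, a transcription factor and an RNA-binding protein of progenitors, had sites at different positions. At Msi2 the NPC site lay 0.01 kb upstream and the ESC sites 28.1 to 183 kb into the gene, but a replicate 2 peak with a value of 6.58 lay under the NPC site.

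Hippo pathway genes and genes of focal adhesion, actin and matrix included many NPC only genes. Of 30 Hippo and YAP pathway genes, 12 (40%, against 6.8% of all genes) were NPC only, 2 (against 3.85%) ESC only, 2 overlapping and 1 at different positions. Of 60 focal adhesion, actin and matrix genes, 18 (30%) were NPC only, 5 ESC only and 6 at different positions. With replicate 1 alone the NPC only counts were 10 for Hippo and 17 for adhesion genes, against 3 and 8 ESC only. With replicate 2 alone 5 Hippo genes were NPC only (16.7%) and 7 ESC only (23.3%). Of the adhesion genes 9 were then NPC only (15%) and 17 ESC only (28.3%). Over all genes the shares with replicate 2 alone were 4.58% NPC only and 14.8% ESC only, so the balance turned for all genes as well. With sites within 10 kb of a start the NPC only counts were 5 and 8 (16.7 and 13.3%, against 2.94% of all genes). The Hippo share then lay below the 18.2% of the AP-1 family.

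The NPC only Hippo genes covered the pathway from kinase to target. Lats2, the kinase that inhibits YAP, had an intronic NPC site with a peak value of 11.5, at which ESC replicate 2 also had a peak with a value of 9.07. Yap1, the co-activator, had a site 0.14 kb upstream of its start with a value of 13.4 and no ESC MBD3 peak there. Of its classical target genes, Ankrd1 had 3 sites from 0.153 to 88.3 kb upstream with values of 6.19 to 12.0, and Ctgf had 1 site 102 kb upstream with 9.73. Axl, a receptor tyrosine kinase, had 2 intronic sites with 15.1 and 16.5, both with the AP-1 string. Of the 12 NPC only Hippo genes, 7 had a peak of at least 1 ESC list nearest to the same gene, against 36.4% of all NPC only genes. Ctgf and Axl were among them, through replicate 2. The DNA-binding partners of YAP stood apart: Tead4 and the TEAD cofactor gene Vgll4 held overlapping sites, and Tead1 held sites at different positions 25.2 kb apart. At Tead4 the overlapping site lay 4.12 to 4.17 kb into the gene, with peak values of 20.6 in replicate 1, 25 in replicate 2 and 29.8 in NPCs.

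Among adhesion genes, Cav1, the main protein of caveolae, had 3 NPC sites with peak values of 7.24 to 13.6, and Flnc, a filamin that crosslinks actin, had 3 with 3.44 to 15.0. No ESC MBD3 peak was nearest to Cav1 or Flnc, but 9 of the 18 NPC only adhesion genes had a peak of at least 1 ESC list. Fn1, which encodes fibronectin, went the other way, with 1 ESC site 20.4 kb upstream and peak values of 9.06 in replicate 1 and 13.7 in replicate 2. The tensin gene Tns3 had 4 ESC and 2 NPC sites at different positions, and its stronger NPC site, with 17.4, lay on a replicate 2 peak with 11.7. Bcar1, a docking protein of focal adhesions, had 1 ESC site and 4 NPC sites, 3 of the latter with the AP-1 string.

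**Figure D2:**
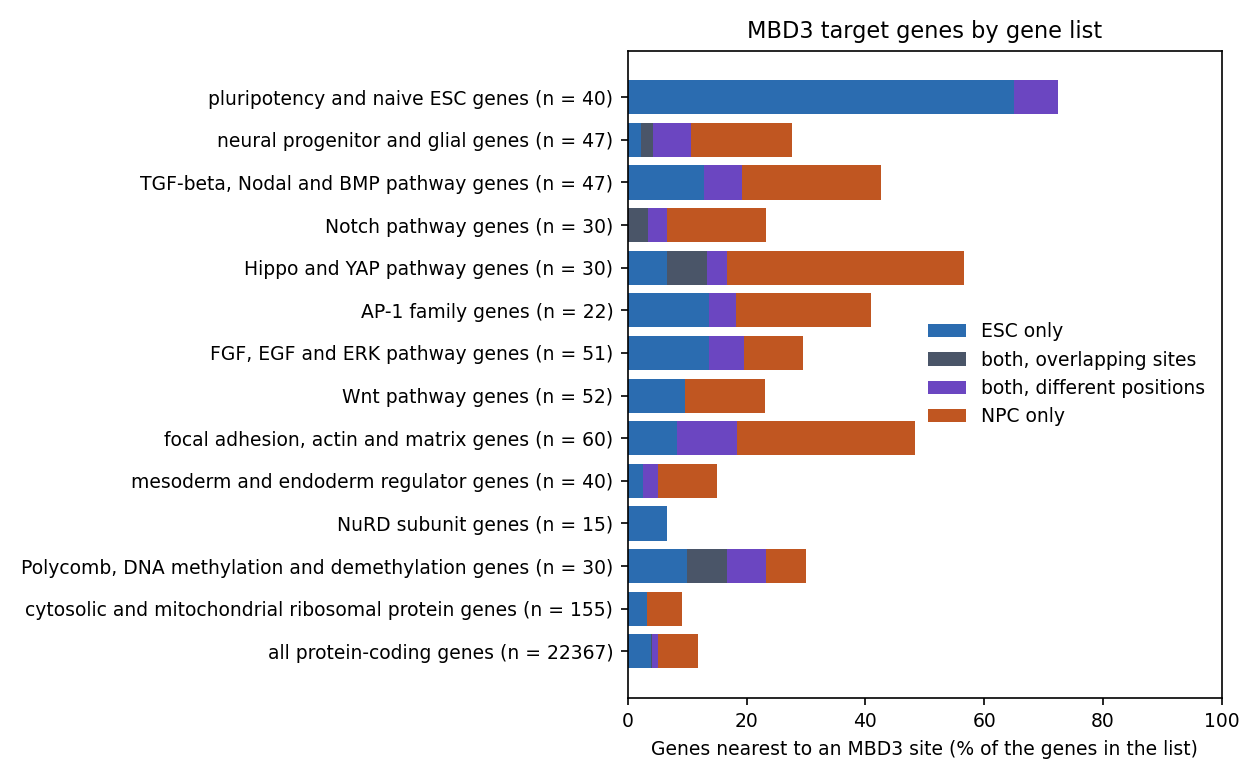
Share of each gene list nearest to an MBD3 site (percent of the list, stacked by class: ESC only, both with overlapping sites, both at different positions, NPC only), with all protein-coding genes at the bottom. Pluripotency genes are mostly ESC only (26 of 40) and Hippo genes include 12 of 30 that are NPC only.

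Members of the same signalling pathway were found on either side. Of 47 TGF-beta, Nodal and BMP pathway genes, 6 were ESC only, 11 NPC only and 3 at different positions (12.8% ESC only and 23.4% NPC only, against 3.85 and 6.8% of all genes). ESC only ligand genes were Nodal, with a site 1.98 kb upstream and values of 12.8 and 12.7, and Tgfb2, with a site 192 kb downstream and values of 5.41 and 13.9, while Tgfb1, Tgfb3 and the activin subunit gene Inhba were NPC only. Of the receptors, Acvr1b and the Nodal co-receptor Tdgf1 were ESC only and Tgfbr2 and Tgfbr3 NPC only. The signal transducers Smad3 and Smad4 were NPC only, with values of 14.3 and 11.5 at the intronic sites of Smad3. An ESC replicate 2 peak was nearest to Smad3, Tgfbr2 and Tgfbr3 as well, though not to Smad4. The inhibitor Smad7, the repressor Tgif1 and another activin subunit gene, Inhbb, had sites at different positions. Tgif1 had 5 ESC sites within 25.3 kb of its start and 2 NPC sites 99.8 and 133 kb downstream, both with the AP-1 string and in introns of the neighbouring gene Dlgap1. With replicate 2 alone, 4 pathway genes were NPC only and 17 ESC only.

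Of 51 FGF, EGF and ERK pathway genes, 7 were ESC only (13.7%), 5 NPC only (9.80%) and 3 at different positions. The ESC only members included the ligand Fgf4, the inhibitor Spry2 and the ETS factors Etv4 and Etv5, and the NPC only members the ligand Fgf1, the inhibitors Spry1 and Spred1 and the ETS factor Etv1. All 5 NPC only members had a peak of at least 1 ESC list at the same gene, and with replicate 2 alone 15 members were ESC only and 1 NPC only. The receptor gene Fgfr2 counted as ESC only through 2 sites that lay in an intron of Ctbp2, 7.30 and 8.30 kb from the start of an Fgfr2 gene model that extends over Ctbp2, so the assignment is uncertain. Of 30 Notch pathway genes, 5 were NPC only (16.7%) and none ESC only, with 4 sites at Notch1, 3 at Notch2 and 3 at Lfng, a glycosyltransferase that modifies Notch. An ESC replicate 2 peak was nearest to Notch1, Notch2 and Lfng as well. With replicate 2 alone 2 Notch pathway genes were NPC only (6.67%, against 4.58% of all genes) and 6 ESC only (20%, against 14.8%). Of 52 Wnt pathway genes, 5 were ESC only (9.62%) and 7 NPC only (13.5%), and no member was a target in both, against 1.2% of all genes. Of the 7 NPC only members, 6 had a peak of at least 1 ESC list at the same gene. With replicate 2 alone 22 were ESC only (42.3%, against 14.8% of all genes) and 2 NPC only (3.85%, against 4.58%). A further 5 then held sites at different positions (9.62%, against 2.63% of all genes).

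The AP-1 family itself was split: of 22 genes, 3 were ESC only (Fos, Jund and Jdp2, 13.6%), 5 NPC only (22.7%) and 1 at different positions. NPC only members included Jun, with values of 4.90 and 6.19, Fosb and Atf3. An ESC replicate 2 peak was nearest to Atf3 as well, though not to Jun or Fosb. With replicate 2 alone 6 were ESC only and 3 NPC only. Of 40 mesoderm and endoderm regulators, 1 was ESC only (2.5%), 4 NPC only (10%) and 1 at different positions, near the 3.85 and 6.8% over all genes. Of 155 cytosolic and mitochondrial ribosomal protein genes, 5 were ESC only (3.23%) and 9 NPC only (5.81%), close to the shares over all genes. Of 15 NuRD subunit genes, Hdac2 alone was a target, with 1 ESC site 38.4 kb upstream, and with either ESC replicate alone 4 subunit genes were ESC only.

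Overlapping sites were found at a small group of genes that included chromatin regulators. Of 30 Polycomb, DNA methylation and demethylation genes, 3 were ESC only, 2 NPC only, 2 overlapping and 2 at different positions, so that 6.67% held overlapping sites, against 0.286% of all genes. The share was the same for Hippo genes, also 2 of 30. It was 3.33% for Notch and 2.13% for neural genes, in both lists through the same gene, Hes1. Ezh2, the methyltransferase of Polycomb repressive complex 2, held its site in an intron 0.892 to 0.970 kb downstream of the start. Its peak values were 55.4 in replicate 1, 42.7 in replicate 2 and 48.4 in NPCs, high in all 3 lists. Uhrf1, which recruits the maintenance DNA methyltransferase, held a site 0.474 to 0.528 kb downstream with 6.85, 17.4 and 11.1. Tet2 held NPC sites 0.356, 82.3 and 82.9 kb upstream and intronic ESC sites 10.7 and 19.4 kb downstream. The Tet2 NPC site nearest to the start, with a value of 20.3, overlapped a replicate 1 peak with 7.02 that replicate 2 did not share.

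The overlapping pair with the highest summed value was at Ctcf, the gene of the insulator protein, 0.272 to 0.312 kb upstream of its start. Its peak values were 15.4 in ESC replicate 1, 80.3 in replicate 2 and 128 in NPCs. Lzts2 had 13.9, 12.0 and 52.1, and Klhl17 had 37.2, 73.1 and 24.5. These values show only that all 3 lists held a peak, since they are not comparable between lists.

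Overlapping sites lay close to gene starts and all others mostly far away. The median distance to the start was 1.35 kb for ESC sites that overlapped an NPC site, and 48.5% of them lay within 1 kb. ESC sites of ESC only genes had a median of 20.1 kb, with 7.45% (6.0 to 9.2%) within 1 kb. NPC sites of NPC only genes had a median of 23.1 kb, with 18.4% (16.7 to 20.2%) within 1 kb. At genes with sites at different positions the medians were 35.9 kb for ESC sites and 39.0 kb for NPC sites, with 3.73 and 13.1% within 1 kb. The ESC figure for promoters rested on replicate 2: with replicate 1 alone, 16.7% of the sites of ESC only genes lay within 1 kb.

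**Figure D3:**
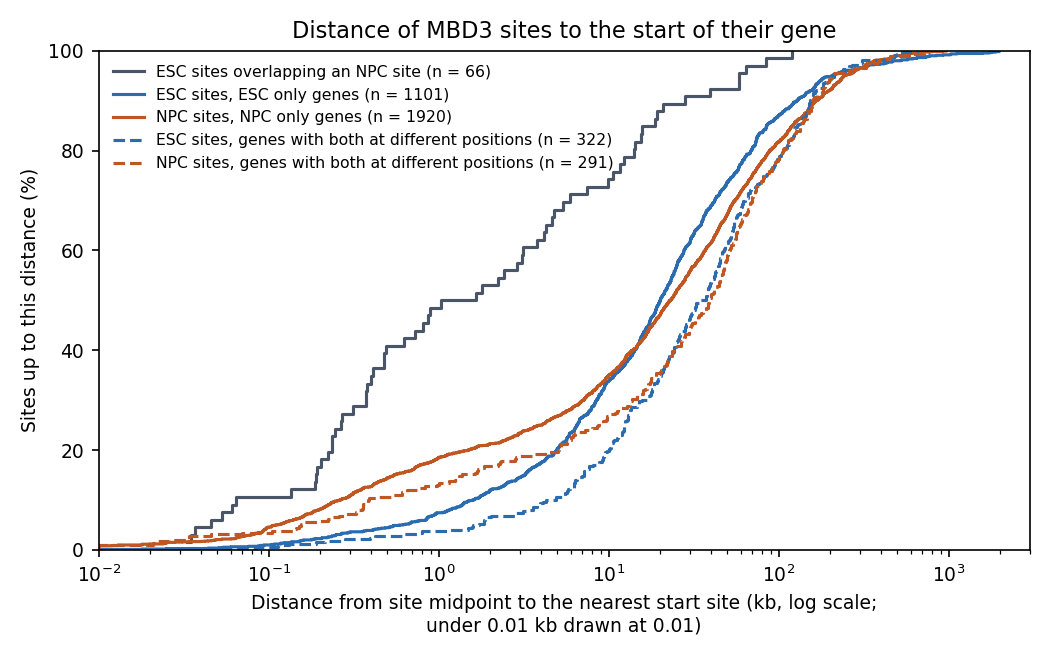
Cumulative share of MBD3 sites (percent) by distance from the site midpoint to the nearest gene start (kb, log scale), for overlapping sites and for ESC and NPC sites of each gene class. The curve of the overlapping sites lies furthest left (median 1.35 kb), and the NPC curves lie above the ESC curves within 1 kb.

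At the 205 genes with sites at different positions, the nearest ESC and NPC sites were a median of 26.5 kb apart (quartiles 7.60 and 75.4 kb, range 0.197 to 728 kb). Only 5 genes had sites within 1 kb of each other, 61 (29.8%) within 10 kb and 165 within 100 kb. The nearest sites lay on the same side of the start at 123 genes and on opposite sides at 82. The ESC site was nearer to the start at 96 genes and the NPC site at 109. At 107 genes both cell types had their sites beyond 10 kb only, at 44 the NPC site lay within 10 kb and the ESC sites beyond, at 28 the reverse held, and at 26 both lay within 10 kb. Of these genes 100 had 1 ESC and 1 NPC site, and 14 had 2 or more of each.

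Among genes whose sites all lay within 100 kb of the start, Mt2, Chn2 and Frmd8 were among those with the smallest gaps, with 0.283 to 0.984 kb between the midpoints. At Mt2, a metallothionein gene, the ESC site lay 0.282 kb upstream with values of 5.45 and 5.32, and the NPC site lay on the first exon with 18.1 and held the AP-1 string. At Chn2 the NPC site lay on a replicate 1 peak with 8.39, so the positions there are not separate in every list. The widest gaps among these genes were at Sulf1, Arid5b, Nhsl1 and Gli2, from 99.4 to 122 kb.

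Of the genes with most sites in both cell types, Gse1 had 4 ESC and 6 NPC sites, 2 of the latter on replicate 1 peaks at its start. Tbl1xr1, a subunit of nuclear corepressor complexes, showed the closest mixture. Its 2 ESC sites flanked the start 0.19 kb upstream and 0.214 kb downstream, 1 NPC site lay 0.542 kb upstream, and 4 further NPC sites lay 113 to 141 kb upstream. The promoter peaks had values of 13.4 and 12.5 in replicate 1, 6.77 and 8.15 in replicate 2, and 6.2 in NPCs.

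The AP-1 string was on the NPC side of the same genes. The search covered the middle 200 bp of every site on either strand, and sequence was not used to choose the genes. The strings were not chosen blind, since the study had reported FOS/JUN motifs at NPC-enriched and POU5F1 and SOX2 motifs at ESC-enriched MBD3 peaks. The tests below use those same peaks and are no independent check of that report. Of the 205 genes, 102 held the AP-1 string in NPC sites but not in ESC sites, 6 in ESC sites only, 8 in both and 89 in neither (two-sided exact sign test over genes, p = 1.25e-23, adjusted over 3 strings 3.75e-23). The octamer went the other way, with 14 genes that held it in ESC sites only and 1 in NPC sites only (exact sign test, p = 0.000977, adjusted 0.00146). The SOX string was found in ESC sites only at 20 genes and in NPC sites only at 11, which did not pass the test (exact sign test, p = 0.15, adjusted 0.15) but passed it in the same direction with replicate 2 alone, where 36 more genes held it on the ESC side (adjusted exact p = 0.000409). Genes are not replicates of a cell type, so these p-values concern the positions in these lists.

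NPC sites held the AP-1 string at NPC only genes and at genes with sites at different positions. The shares were 49.2% (47.0 to 51.5%) and 46.4% (40.6 to 52.3%), against 3.85 and 4.47% of regions of the same length 10 kb downstream. NPC sites that overlapped an ESC site held it in 6 of 70 cases (8.57%, 3.2 to 17.7%), against 7.14% of their control regions. ESC sites held it at 2.91% for ESC only genes and 4.35% for genes with different positions, near the control shares of 3.45 and 3.73%.

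The octamer was found in 6.09% of the sites of ESC only genes and 4.97% of ESC sites at genes with different positions, against 1.82 and 0.932% of control regions. The SOX string was found in 7.45 and 7.76% of these sites, against 2.91 and 1.86%. In NPC sites of NPC only genes the octamer share was 0.573%, below its control of 1.25%, and the SOX share 4.22%, above its control of 2.50%. A match of letters is a description and not a measured binding of the factor.

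Distance moved with the AP-1 string. Among NPC sites of NPC only genes, 6.50% of those within 1 kb of the start held it, 52.1% of those at 1 to 10 kb, 61.0% at 10 to 100 kb and 59.7% farther away. At genes with different positions the shares were 5.26, 42.5, 54.0 and 55.6%. When only sites within 10 kb of a start were assigned, 26 genes at different positions were left, and the excess of genes with the AP-1 string on the NPC side was 5 (adjusted exact p = 0.375). By gene list, the string was found in 12 of 40 NPC sites of adhesion genes, 6 of 20 of Hippo genes, 7 of 15 of neural genes and 1 of 15 of Notch genes, against 47.6% of all NPC sites. Higher shares were found for Wnt genes (6 of 10), FGF, EGF and ERK genes (6 of 11) and mesoderm and endoderm regulators (4 of 8).

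**Figure D4:**
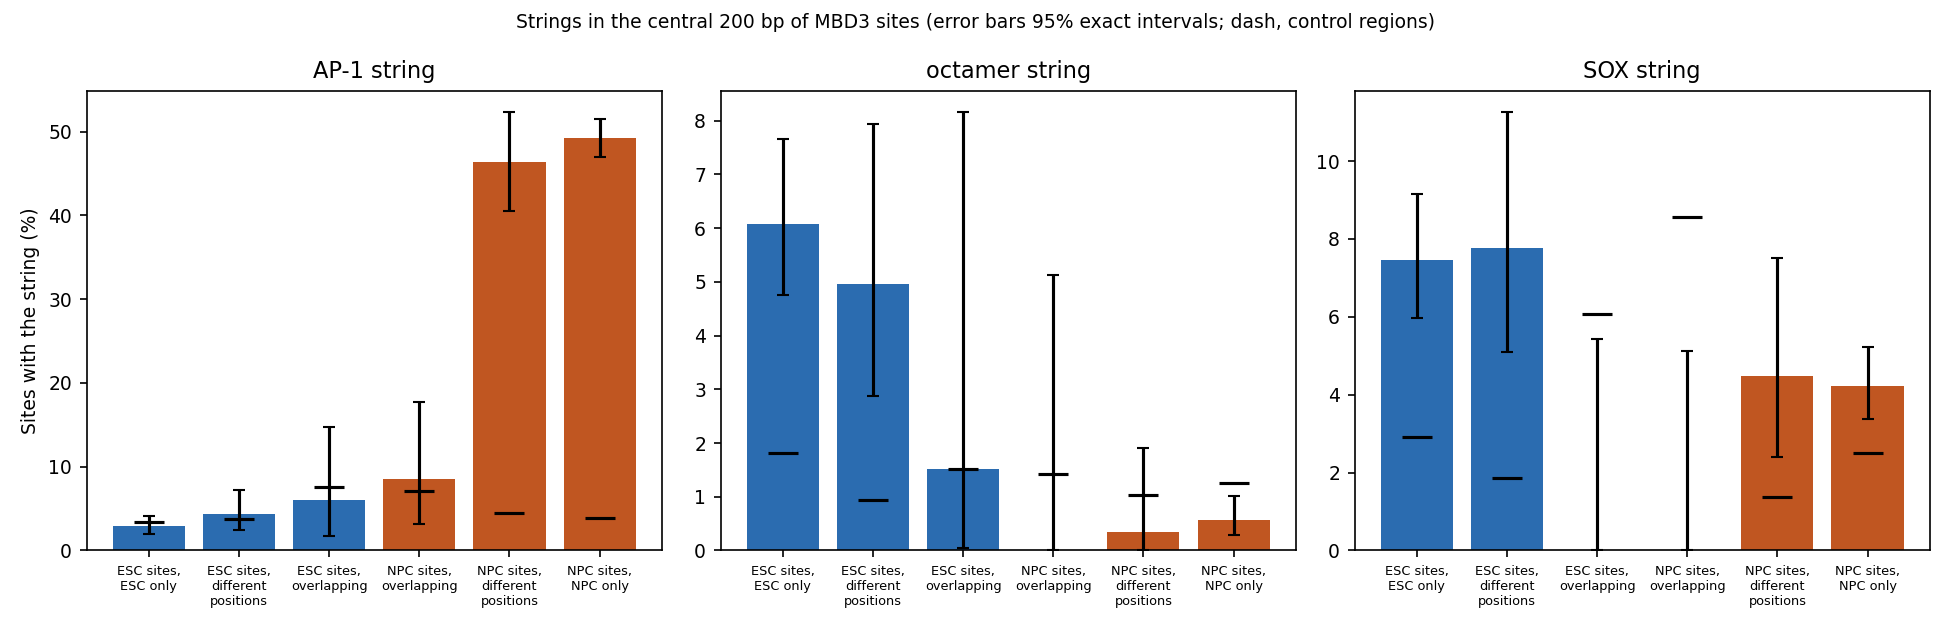
Share of MBD3 sites (percent) with the AP-1, octamer or SOX string in the central 200 bp, for each site class (blue, ESC sites; orange, NPC sites; error bars, 95% exact intervals; black dashes, regions of the same length 10 kb downstream). The AP-1 share is 49.2% in sites of NPC only genes and 8.57% in overlapping NPC sites; the 3 vertical axes differ in range.

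CHD4, the ATPase of NuRD, marked part of each class in the other cell type. CHD4 peaks of NPCs were nearest to 54.3% of the ESC only genes, against 34.9% of all genes, so 394 ESC only genes (45.7%) had neither an MBD3 nor a CHD4 peak in NPCs. Of the 26 ESC only pluripotency genes, 9 had an NPC CHD4 peak nearest to them. ESC CHD4 sites were nearest to 28.0% of the NPC only genes and to 92.7% of the ESC only genes, against 18.5% of all genes. These are sites that both ESC CHD4 replicates shared, whereas NPC CHD4 has 1 list, and a CHD4 peak of either ESC list was nearest to 71.6% of the NPC only genes, against 46.3% of all genes. ZFP296, a zinc finger protein of ESCs profiled through a GFP tag, had a peak nearest to 59.7% of the ESC only, 67.8% of the different-position, 35.9% of the overlapping and 13.6% of the NPC only genes, against 2237 of all 22367 genes. SIN3A, the scaffold of another deacetylase complex, marked 62.4, 72.7, 82.8 and 40.1% of these classes, against 28.5%.

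At the sites themselves, the lists of the other cell type were compared between genes with both and genes with only 1 cell type, leaving out overlapping MBD3 sites. An ESC CHD4 site lay on 28 of 291 NPC sites (9.62%, 6.5 to 13.6%) at genes with an ESC site elsewhere and on 52 of 1919 (2.71%, 2.0 to 3.5%) at NPC only genes. By Fisher's exact test, two-sided and adjusted over 6 tests, the odds ratio was 3.82 (2.28 to 6.29, adjusted p = 1.85e-06). The call was lost when ESC MBD3 replicate 2 alone gave the ESC sites (odds ratio 1.88, adjusted exact p = 0.0672), and the odds ratio was 1.51 without ESC CHD4 replicate 1. In the reverse direction an NPC CHD4 peak lay on 24 of 321 ESC sites (7.48%) and on 42 of 1101 (3.81%), with an odds ratio of 2.04 (1.16 to 3.51, adjusted exact p = 0.0277). That call was lost under 4 other settings, with odds ratios of 1.56 to 2.01. Sites of the same gene share their gene and lie near each other, so the counts are not independent.

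The ZFP296 and SIN3A lists gave smaller or less stable differences. At ESC sites ZFP296 was found on 49.2% at genes with both and 42.0% at ESC only genes (odds ratio 1.34, adjusted exact p = 0.0277), and SIN3A on 30.8 and 24.3% (1.39, adjusted exact p = 0.0277). At NPC sites ZFP296 was found on 2.06 and 0.625% (3.34, adjusted exact p = 0.0277) and SIN3A on 14.8 and 10.7% (1.45, adjusted exact p = 0.0458). The direction at NPC sites turned with another ESC site set, to 0.698 for ZFP296 without ESC MBD3 replicate 1 and to 0.885 for SIN3A without replicate 2.

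In all classes of target genes the median territory, the stretch of chromosome nearest to a gene's start, was larger than over all genes. The median was 174 kb for genes at different positions, 112 kb for NPC only, 101 kb for ESC only and 67.6 kb for overlapping genes, against 47.7 kb for all genes. From the smallest to the largest quintile of genes by territory, the share with ESC sites rose from 1.05 to 10.8% and the share with NPC sites from 2.26 to 17.7%. The share at different positions went from 0.0671 to 2.73%, while the overlapping share was 0.179 and 0.134% in the smallest quintiles and 0.335 to 0.425% in the others. Of the 205 genes at different positions, 122 were in the largest quintile. Among the gene lists the median territory ran from 22.5 kb for ribosomal protein genes to 207 kb for neural genes. It was 119 kb for pluripotency genes and 97.7 kb for Hippo genes. The part of territory in the sharing of genes and in the counts of the lists was not tested.

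**Figure D5:**
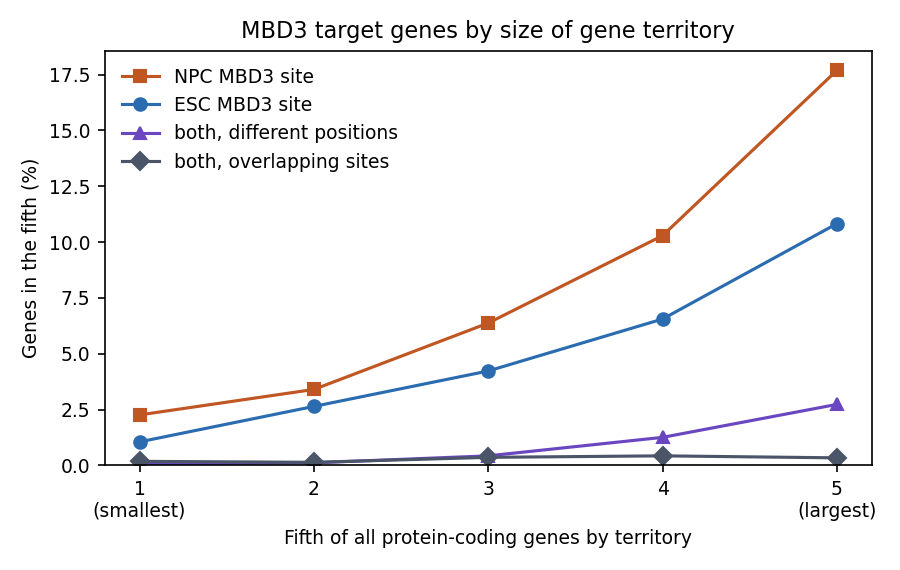
Share of genes (percent) with an ESC MBD3 site, an NPC MBD3 site, both at different positions or both overlapping, by quintile of all protein-coding genes in territory size. The NPC line reaches 17.7% and the ESC line 10.8% in the largest quintile, while the overlapping line stays at or below 0.425%.

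The nearest start is not always that of the gene that holds the site. Inside a protein-coding gene lay 627 of 1507 ESC sites (41.6%) and 1175 of 2304 NPC sites (51.0%), and 132 of the former (21.1%) and 297 of the latter (25.3%) lay inside a gene other than the assigned one. Scgb1a1, a secretoglobin gene of the airway, led the NPC only class with 6 sites, of which 5 lay in introns of the neighbouring gene Ahnak. Socs1, an inhibitor of cytokine signalling, Ccnl1, a cyclin gene, Fbln2, a matrix gene, and Irf2bp2, a transcriptional corepressor gene, followed with 5 NPC sites each, and so did the predicted gene Gm22. The highest peak values were 24.9 at Socs1, 25.6 at Ccnl1, 19.1 at Fbln2 and 15.8 at Irf2bp2, and none of these sites had an ESC MBD3 peak. At other positions, an ESC replicate 2 peak was nearest to Irf2bp2, and a replicate 2 peak was nearest to Scgb1a1 as well. When sites inside a gene were given to that gene, 855 genes were ESC only, 1475 NPC only, 64 overlapping and 209 at different positions.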

How the data were processed

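ChIP-seq peak lists of MBD3 in wild-type ESCs (2 replicates) and NPCs (1 sample) were compared, with CHD4, SIN3A and GFP-ZFP296 lists as further readouts. The ESC MBD3 replicates are biological replicates by the study's account, and the sources used here do not say whether they came from separate cultures. The authors mapped reads to mm9 with BWA, kept uniquely mapped reads, removed duplicates and called peaks per sample against input with MACS2 2.0. The deposited value of each peak is a −log10 value, and the sources used here do not give whether of p or of q. The peak names of ESC CHD4 replicate 2 mention another tagged line, and the list was used as labelled.

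Sites were assigned to the nearest start of GENCODE vM1 protein-coding genes on chromosomes 1 to 19, X and Y, which left out 1 ESC site. Intervals of shares are 95% Clopper-Pearson bounds and reflect counting error alone. Strings were compared with exact sign tests and other lists with Fisher's exact tests, both two-sided with Benjamini-Hochberg adjustment. Named genes were the 6 with most sites per class, the 6 overlapping pairs with the highest summed values, list members ordered the same way, the 4 smallest and 4 largest gaps among genes whose sites all lay within 100 kb of the start, and 5 genes for sequences. Of these, 1 gene of the smallest gaps and 1 pair of sequences are not reported here. Genes printed beyond these ranks were chosen after their values were seen. The members, the 13 gene lists and the tests were chosen with earlier results of these data known. List symbols were matched through RefSeq synonyms (Sox1 was not matched), and a symbol with several gene models stood for the longest. Alternatives changed the ESC site set, overlap, threshold, list size, distance, gene start, chromosomes and search window. Steps were tested on simulated data and run in Python 3.11.15 (scipy 1.17.1 for tests, matplotlib 3.10.9 for plots, numpy 2.4.6), with sequences read by samtools 1.23.1 and pyfaidx 0.9.0.4.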

Additional observations from a re-analysis of the deposited data

How the results depend on the processing

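No paired analysis was possible because the NPC MBD3 list carries no replicate number that the ESC lists could share. With 1 NPC library, no spread between NPC samples could be given, and without read counts the depth behind a missing peak is unknown. Leaving out either ESC MBD3 replicate gave 1274 to 3309 ESC only, 1024 to 1413 NPC only, 107 to 177 overlapping and 269 to 588 different-position genes, and the union gave 3572, 966, 217 and 606. The share of ESC target genes with an NPC site was 18.8 to 22.8% without a replicate and 18.7% with the union, that of NPC target genes with an ESC site 21.0 to 42.8% and 46%, that of NPC sites elsewhere at an ESC target gene 19.2 to 39.9% and 42.5%, and that of ESC only sites within 1 kb of a start 6.97 to 16.7% and 9.60%. The SOX difference between NPC and ESC sites passed the test at -36 genes (from -36 to -8 without a replicate), at -34 with the union and at -18 in whole peaks. Odds ratios without a replicate ranged from 1.13 to 1.39 for SIN3A at ESC sites, 1.51 to 4.43 for ESC CHD4, 0.698 to 3.36 for ZFP296 and 0.885 to 1.45 for SIN3A at NPC sites, and with the union they were 1.02, 1.82, 0.992 and 0.887. The cause of these reversals was not tested.

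With sites within 10 kb of a start only, 344 genes were ESC only, 657 NPC only and 26 at different positions, the shares became 17.7% of ESC and 10.1% of NPC target genes, 35.1% of shared genes never overlapped, 4.37% of NPC sites lay elsewhere at an ESC target gene, and 22.5% of ESC only and 52.6% of NPC only sites lay within 1 kb. Fewer genes then entered the tests, and the string differences were 5 for AP-1 and -3 for the octamer, short of the threshold. Odds ratios were 1.56, 1.19 and 1.47 for NPC CHD4, ZFP296 and SIN3A at ESC sites and 2.74 and 2.05 for ZFP296 and SIN3A at NPC sites, also short of it. Within 100 kb these shares were 70% never overlapping, 11.7% elsewhere and 22.3% of NPC only sites within 1 kb, which was 22.4% with any transcript start (ZFP296 at NPC sites 2.59) and 13.3% with CHD4-marked sites. CHD4-marked sites also gave 13.4% of NPC target genes shared, 12.3% of NPC sites elsewhere, and SIN3A at 1.12 and 1.28. Lists of equal number gave 17.5% of ESC target genes shared, with ZFP296 at 1.25 and SIN3A at 1.19 at ESC sites. Without chromosomes 3, 6, 8, 14 and 19, 129 genes were at different positions, 21.1% of ESC target genes were shared, 12.4% of NPC sites lay elsewhere, and odds ratios of 2.01 (NPC CHD4), 1.36 (SIN3A, ESC sites), 2.15 (ZFP296) and 1.32 (SIN3A, NPC sites) missed the threshold.

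A peak value of at least 5 gave 1.76 (NPC CHD4), 1.41 (SIN3A, ESC sites), 2.77 (ZFP296, NPC sites) and 1.42 (SIN3A, NPC sites), an overlap of 50% gave 1.29 (ZFP296, ESC sites) and 1.44 (SIN3A, NPC sites), and SIN3A peaks of either list gave 1.14 at ESC sites, all short of the threshold. Sites given to the gene that holds them, an alternative chosen after seeing the data like the omission of a CHD4 replicate and of genes with sites within 1 kb, gave 15.8% of NPC sites elsewhere and 1.91, 1.31, 1.29, 2.22 and 1.23 for the same 5 comparisons as at 10 kb. The AP-1 and octamer calls kept direction and side of the threshold under every alternative run except the 10 kb limit. The other values of the main comparisons, 175 in all, kept their direction and call or moved by less than their error. Outside the main comparisons, 92 values were counted as moved and 268 as unchanged, and these are not listed.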

Other observations

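Target genes on the X chromosome were few. Of 932 protein-coding genes there (4.17% of all), 9 were ESC only and 1 was NPC only. The NPC MBD3 list held 1 of 2304 peaks on the X (0.0434%, 95% exact interval 0.0011 to 0.242%), against 143 of 20234 in the NPC CHD4 list (0.707%), 17 of 2344 in ESC MBD3 replicate 1 (0.725%) and 51 of 7551 in replicate 2 (0.675%). Across the other lists the share ran from 0.427 to 0.935%, so that every list was low against the share of genes and the NPC MBD3 list lowest.

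Chromosome 3 held 134 of the 1520 NPC only genes (8.82%) and 37 of the 862 ESC only genes (4.29%), against 4.73% of all genes. Chromosome 14 held 25 of the NPC only genes (1.64%) and 33 of the ESC only genes, against 4.26% of all genes.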
